A study of Sus scrofa with 24 samples.

Results

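Blood mononuclear cells of 4 pigs given a grape extract enriched in resveratrol on ordinary chow were compared with those of 4 pigs given the chow alone. For 4 months the control group (CT) ate commercial chow of the standard kind. The supplemented group (CT-GE-RES) ate the same chow for the same time with a supplement scaled to 1 g of grape extract and 18 mg of resveratrol per 70 kg of body weight. The arrays were taken by their diet label alone and make up 8 of the 24 arrays of the series, each from 1 animal. In both groups animals 1 and 2 were females and animals 3 and 4 were males, and these numbers name animals without pairing them. The other 16 arrays came from pigs on an atherogenic diet (AD: 1% cholic acid, with 10% of the feed as coconut oil and 5.5% as beef tallow), fed alone or with the plain extract (AD-GE), resveratrol (AD-RES) or the enriched extract (AD-GE-RES), 4 animals per diet. The comparison on chow asks what the supplement did in pigs that never ate the atherogenic diet.

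Resveratrol is a stilbene polyphenol of grape skin, and grape extracts also hold anthocyanins and proanthocyanidins. In cultured cells and rodents resveratrol is known for engaging the deacetylase SIRT1 and the energy sensor AMPK, for binding the aryl hydrocarbon receptor, for inducing antioxidant enzymes through NRF2 and for lowering inflammatory genes driven by NF-kB. Mononuclear cells are the T cells, B cells, natural killer (NK) cells and monocytes of blood, collected over a density gradient that lets most granulocytes and red cells sink.

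Levels are log2 of the deposited array intensity, and a difference of 1 is a 2-fold difference. Markers of the labelled cells were present on all 8 arrays. CD3E of T cells ranged from 9.55 to 10.55, GNLY of cytotoxic cells from 11.44 to 12.48 and TYROBP of myeloid cells from 11.84 to 12.63. CD79B of B cells ranged from 8.51 to 9.44. Not all markers were bright: CD14 of monocytes ranged from 4.31 to 8.27 and ITGAM from 3.21 to 4.07. Markers of other blood cells were also measured: the red cell gene ALAS2 ranged from 9.71 to 13.56, the platelet gene PPBP from 8.36 to 10.86 and the neutrophil gene LTF from 5.47 to 11.10. The second CT male, CT 4, stood apart from the other arrays. Its mean correlation with the other 23 arrays was 0.957, against 0.968 to 0.982 for the rest. The mean of 11 neutrophil genes, relative to the mean of all 24 arrays, was 0.021, -0.12, 0.018 and 1.66 in CT and -0.29, -0.44, -0.39 and -0.27 in CT-GE-RES, so CT 4 alone was far above the others. The mean of 10 erythroid genes was -0.11, -0.45, 0.22 and 1.64 in CT and 0.092, 0.040, -0.62 and -0.84 in CT-GE-RES, with CT 4 again highest. The 3'/5' ratio, the log2 intensity of the 3' over the 5' probe sets of 3 control transcripts, goes up as RNA breaks down. It was 1.64, 3.33, 3.24 and 4.39 in CT (3.15 ± 1.13, SD, n = 4) and 1.504, 2.69, 3.21 and 1.40 in CT-GE-RES (2.20 ± 0.89, SD, n = 4). The groups overlapped, and the difference of -0.94 had p = 0.143 in an exact two-sided permutation test, whose smallest possible p is 0.0286. CT 4 had the highest ratio of all 24 arrays. For many differences and list counts that moved by over 1.5 times without CT 4, or with the ratio as a covariate, that value is therefore given beside them.

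No probe set passed the test in the comparison of all 8 animals. Of 17999 probe sets tested with limma, 0% had an adjusted p under 0.05, and the smallest adjusted p was 0.700. At an unadjusted p under 0.05 there were 1224 probe sets (6.80%), of which 697 (3.87%) were higher and 527 (2.93%) lower in CT-GE-RES. The 4 values of one group all lay beyond the 4 of the other in 725 probe sets (4.03%), higher in 344 (1.91%) and lower in 381 (2.12%). Only 30 probe sets had both an unadjusted p under 0.01 and a difference of at least 1.5-fold. The 95% confidence interval of the difference lay within 2-fold in either direction for 92.3% of the probe sets, so differences beyond 2-fold are outside the interval of most of them. Without CT 4, 495 probe sets (2.75%) had an unadjusted p under 0.05. Among 6033 genes, each by its brightest probe set with 1 symbol, 59.3% were higher in CT-GE-RES, with a median difference of 0.04. An unadjusted p under 0.05 was found for 8.24% of these genes, 5.95% on the higher and 2.29% on the lower side. These were 359 and 138 genes, which became 134 and 57 without CT 4 and 247 and 73 with the ratio. Without overlap 3.03% stood higher and 1.66% lower. These shares are the background for the gene groups below. Since nothing passed the adjusted test, genes are described as standing higher or lower, and every adjusted p of a single gene in this comparison is at least 0.700.

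**Figure D1:**
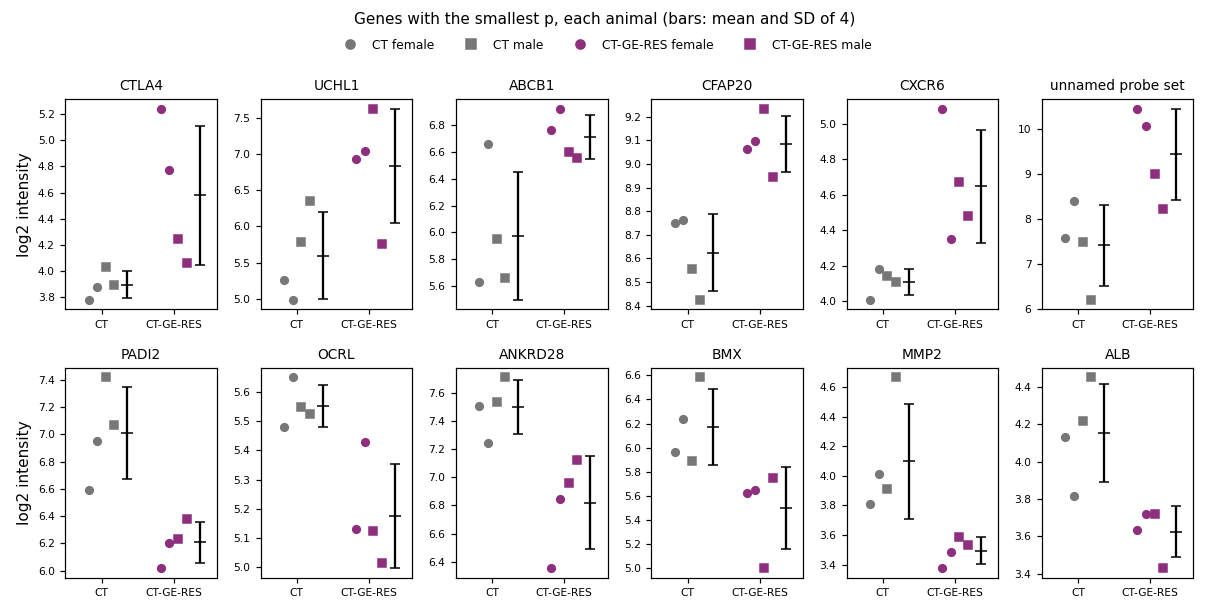
Level (log2 intensity, y axis) of 11 genes and 1 unnamed probe set in each animal, by diet (x axis), with circles for females, squares for males and bars for the mean and SD of 4 animals. The upper row stood higher and the lower row lower in CT-GE-RES, and for CTLA4 the 2 supplemented females lie above all other animals.

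Among the genes higher on the supplement was CTLA4, the inhibitory receptor of activated and regulatory T cells. Its levels were 3.78, 3.88, 4.03 and 3.90 in CT and 5.24, 4.77, 4.25 and 4.06 in CT-GE-RES. The groups did not overlap, and the 2 supplemented females, at 5.24 and 4.77, lay above every other array of the series, where the highest of the 16 atherogenic-diet arrays was 4.39. The difference was 0.68 (SE 0.19, 95% confidence interval 0.30 to 1.07) and 0.70 without CT 4. CXCR6, the receptor for the chemokine CXCL16 on effector T and NK cells, was 4.01, 4.18, 4.14 and 4.11 in CT and 5.08, 4.35, 4.67 and 4.48 in CT-GE-RES, again without overlap (difference 0.54, SE 0.16). Both are near the low end of the array, where probe sets with a mean under 3.57 were left out.

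UCHL1, a ubiquitin hydrolase best known from neurons, had the largest difference of the 15 genes with the smallest p on the higher side. It was 5.25, 4.98, 5.78 and 6.35 in CT and 6.93, 7.04, 7.63 and 5.75 in CT-GE-RES, so 3 supplemented pigs lay above all controls and CT-GE-RES 4 lay among them. The difference was 1.25 (SE 0.36, 2.37-fold), and 1.48 without CT 4. On the atherogenic diets its highest level was 6.40. ABCB1, the drug efflux pump P-glycoprotein, was 5.63, 6.66, 5.95 and 5.66 in CT and 6.76, 6.92, 6.60 and 6.56 in CT-GE-RES, where only CT 2 reached the supplemented level. Its difference was 0.73 (SE 0.21), with 0.56 (SE 0.21) for the same supplement on the atherogenic diet. CFAP20, a ciliary protein, had the smallest p of all named genes. Its levels were 8.75, 8.76, 8.56 and 8.42 in CT and 9.06, 9.10, 9.23 and 8.95 in CT-GE-RES, without overlap (difference 0.46, SE 0.11), and its second probe set stood higher by 0.86 as well.

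The other 10 genes of the 15 with the smallest p on the higher side differed by 0.40 to 0.76. MPLKIP was 4.88, 4.49, 4.61 and 3.76 in CT and 5.36, 4.95, 4.98 and 5.50 in CT-GE-RES, without overlap (difference 0.76, SE 0.23, 0.49 without CT 4), but its 2 other probe sets differed by 0.26 and -0.25. APOO, a subunit of the mitochondrial cristae complex, stood higher by 0.46 (SE 0.13), and WDR12, needed for the large ribosomal subunit, by 0.40 (SE 0.12). PSMG1, an assembly chaperone of the proteasome, was 7.72, 7.59, 7.56 and 6.88 in CT and 7.98, 7.86, 8.08 and 7.84 in CT-GE-RES (difference 0.50, SE 0.15), with CT 4 lowest and 0.32 without it. PPP3CC, a catalytic subunit of the phosphatase calcineurin, differed by 0.57 (SE 0.17). ITGAV, the alpha V integrin chain, differed by 0.40 (SE 0.12). In the remaining 4 other probe sets of the gene differed less: ADPRHL2, which removes ADP-ribose (0.42, against 0.09 and 0.19 by its others), the actin cross-linker ACTN1 (0.42, against 0.06 and 0.08 by brighter ones, and 0.27 without CT 4), the ubiquitin-binding PLAA (0.60, against 0.08 and 0.36, and 0.38 without CT 4) and the DNA damage ubiquitin ligase RAD18 (0.42, against 0.04).

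The smallest p of all 17999 probe sets belonged to one that has no gene name here. It is titled as an unnamed probe set in the plot of single genes and was picked out after its values were seen. It was 7.58, 8.39, 7.50 and 6.21 in CT and 10.43, 10.06, 8.996 and 8.23 in CT-GE-RES, so that the groups overlapped only between CT 2 and CT-GE-RES 4. The difference was 2.01 (SE 0.43, 4.03-fold) and 1.66 without CT 4. A second unnamed probe set of the same identifier series was 7.24, 7.97, 7.31 and 7.15 in CT and 9.14, 8.71, 8.23 and 7.54 in CT-GE-RES (difference 0.99, SE 0.22). For the first of them the 16 atherogenic-diet arrays reached at most 8.57, below 3 of the 4 supplemented pigs on chow.

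On the lower side PADI2, which converts arginine to citrulline in proteins and is found in myeloid cells, was 6.59, 6.95, 7.42 and 7.07 in CT and 6.02, 6.20, 6.23 and 6.38 in CT-GE-RES. Every supplemented pig lay below every control (difference -0.80, SE 0.22, 95% confidence interval -1.26 to -0.35). OCRL, a phosphatase of membrane inositol lipids, had the smallest p on this side. Its levels were 5.48, 5.65, 5.55 and 5.52 in CT and 5.13, 5.43, 5.12 and 5.01 in CT-GE-RES, without overlap (difference -0.38, SE 0.10), while its dimmer probe set differed by -0.11. ANKRD28, a scaffold of a protein phosphatase, was 7.50, 7.24, 7.53 and 7.71 in CT and 6.35, 6.84, 6.96 and 7.13 in CT-GE-RES (difference -0.68, SE 0.21). BMX, a tyrosine kinase of myeloid and endothelial cells, was 5.97, 6.24, 5.89 and 6.58 in CT and 5.62, 5.65, 5.002 and 5.75 in CT-GE-RES (difference -0.67, SE 0.22), with CT-GE-RES 3 the lowest. In both genes the groups did not overlap.

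The other 11 genes on the lower side were mostly dim. FAM151B, whose groups did not overlap, differed by -0.68 (SE 0.21) and TRIM29 by -0.38 (SE 0.13, -0.23 without CT 4). The lipoprotein lipase anchor GPIHBP1 differed by -0.43 (SE 0.13), the corticotropin receptor MC2R by -0.51 (SE 0.15, -0.32 without CT 4) and FBXW9 by -0.38 (SE 0.13). MMP2, a gelatinase, was 3.81, 4.01, 3.91 and 4.66 in CT and 3.37, 3.48, 3.59 and 3.53 in CT-GE-RES (difference -0.60, SE 0.18), and CT 4 was the highest. ALB (albumin) was 4.13, 3.82, 4.22 and 4.45 in CT and 3.63, 3.72, 3.72 and 3.43 in CT-GE-RES (difference -0.53, SE 0.15). These levels lie just above the filter. The same holds for BVES (-0.47, -0.28 without CT 4), SYT5 (-0.55, -0.27 without CT 4), EFEMP2 (-0.43, -0.06 by its brightest probe set) and the mitochondrial arginase ARG2 (-0.33, -0.15 by its brightest).

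**Figure D2:**
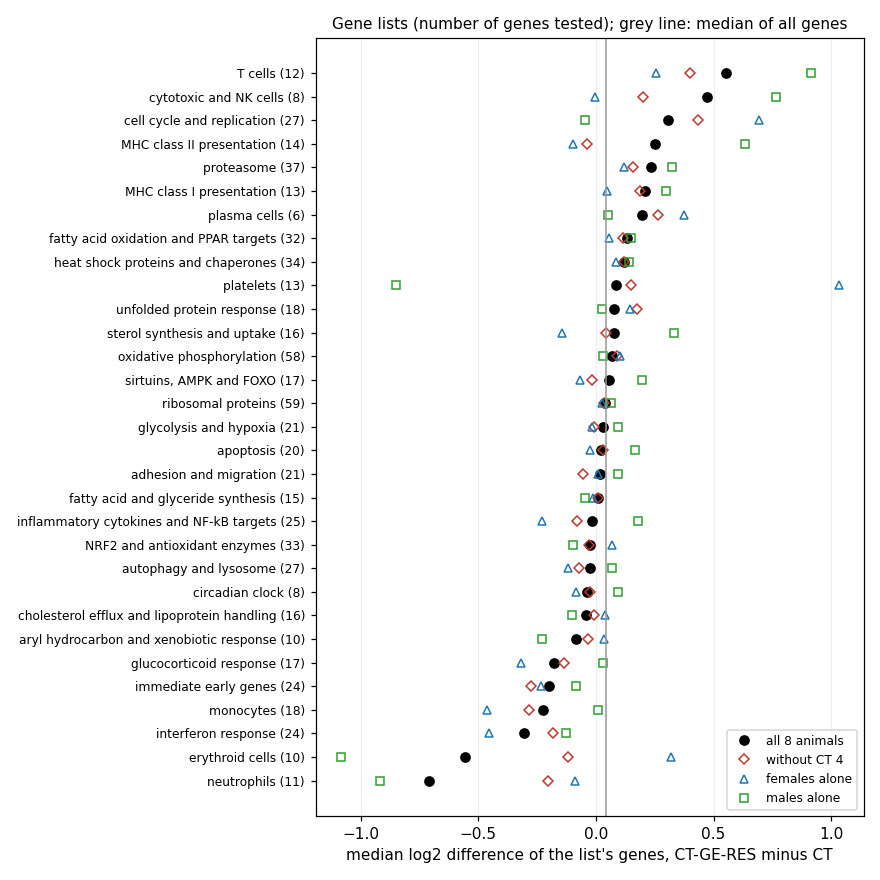
Median log2 difference, CT-GE-RES minus CT (x axis), of 31 gene lists (y axis, number of genes tested in brackets) for all 8 animals, without CT 4, in females and in males. The T cell list lies highest at 0.55 and the neutrophil list lowest at -0.71, and platelet genes lie at 1.03 in females and -0.85 in males.

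T cell genes stood higher in the supplemented pigs as a group. All 12 T cell genes tested were higher, 7 of them at an unadjusted p under 0.05 (5.95% of all genes on this side), and the groups did not overlap in 3. Their median difference was 0.55, against 0.04 over all genes. CD3G, a chain of the T cell receptor complex, was 11.10, 11.21, 11.12 and 9.62 in CT and 11.48, 11.41, 11.49 and 11.47 in CT-GE-RES. The supplemented pigs lay close together above all controls, and CT 4 was low (difference 0.70, SE 0.26, and 0.31 without CT 4). The T cell adapter LAT differed by 0.42 (SE 0.18), and 0.21 without CT 4. CD4, the helper T cell coreceptor, was 4.37, 4.09, 4.37 and 4.43 in CT and 4.72, 4.92, 4.70 and 4.61 in CT-GE-RES, without overlap and with no low CT 4 (difference 0.42, SE 0.19, 0.47 without CT 4), though its signal was dim. By its second probe set CD4 differed by 0.22, with groups that overlapped. The mean of the list relative to all 24 arrays was 0.12, -0.30, -0.37 and -1.18 in CT and 0.39, 0.045, -0.0061 and 0.48 in CT-GE-RES, where CT 1 lay among the supplemented pigs. Without CT 4 the median was 0.40, with 11 of 12 genes higher and 2 at an unadjusted p under 0.05. With the 3'/5' ratio as covariate it was 0.36, with 12 higher and 3 at that p. In a bulk sample, more T cells and more RNA of these genes per cell in the supplemented pigs cannot be told apart.

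**Figure D3:**
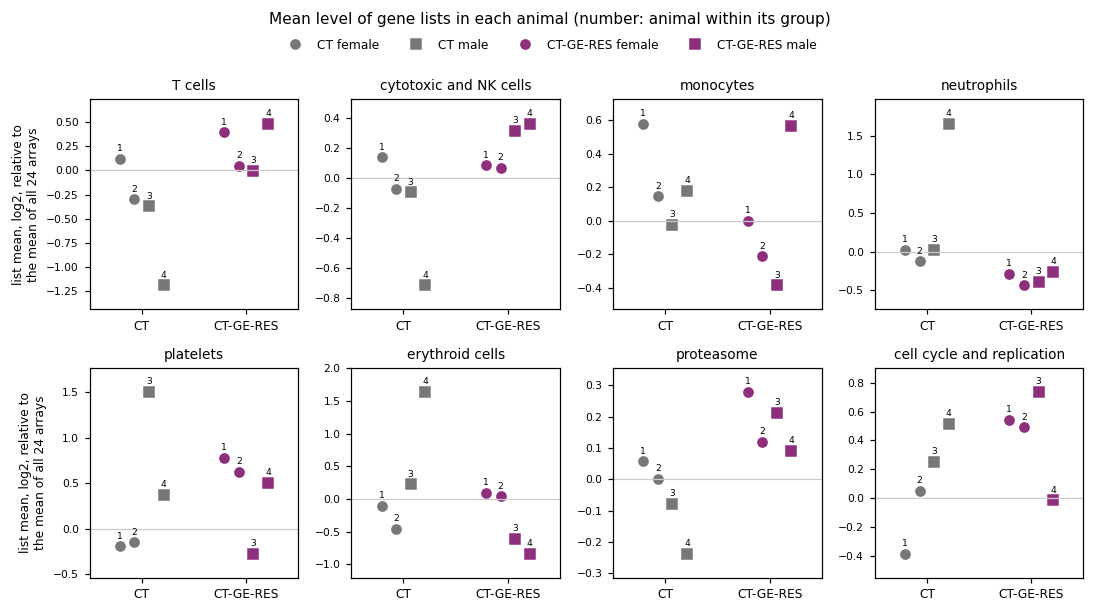
Mean level of 8 gene lists in each animal (log2, relative to the mean of all 24 arrays, y axis) by diet (x axis), with circles for females, squares for males and the animal's number beside it. CT 4 is lowest for T cell, cytotoxic and proteasome genes and highest for neutrophil and erythroid genes.

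Of 8 genes of cytotoxic and NK cells 7 were higher, 2 at an unadjusted p under 0.05, with a median of 0.47. CD8B, one chain of the cytotoxic T cell coreceptor, was 7.81, 8.23, 7.88 and 7.78 in CT and 8.43, 8.42, 8.82 and 8.59 in CT-GE-RES (difference 0.64, SE 0.26). CD8A, the other chain, was 11.29, 11.30, 11.32 and 10.998 and 11.53, 11.60, 11.86 and 11.57 (difference 0.41, SE 0.20). Neither overlapped between the groups, and the differences were 0.58 and 0.32 without CT 4. The granzyme GZMH differed by 0.78 (SE 0.30) and by 0.30 without CT 4. The activating receptor KLRK1 differed by 0.53 (SE 0.30), and by 0.33 without CT 4. Without CT 4 the list's median was 0.20, with 7 of 8 genes higher and 0 at that p. Only 4 B cell genes were tested, all 4 lower, between -0.28 and -0.0034. Of 6 plasma cell genes 5 were higher (median 0.20). The ectoenzyme CD38 stood higher by 0.55 (SE 0.20) and FKBP11, a secretory folding protein, by 0.24 (SE 0.11).

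Monocyte genes leaned the other way, 13 of 18 being lower with a median of -0.23. The lean lay in the females, where 17 of 18 were lower (median -0.46), while in males 9 of 18 were higher (median 0.0084). No test was run on that contrast for the list. CEBPB, a transcription factor of myeloid cells, was 12.40, 12.22, 11.94 and 12.02 in CT and 11.42, 11.11, 11.17 and 12.27 in CT-GE-RES, so that 3 supplemented pigs lay below all controls and CT-GE-RES 4 did not (difference -0.66, SE 0.24). Its relative CEBPD differed by -0.33 (SE 0.17), but by 0.70 and -0.32 in its dimmer probe sets. The sialic acid receptor SIGLEC1 differed by -0.32, and by -0.18 without CT 4. FCGR3A, the CD16 receptor shared with NK cells, stood higher by 0.57, and 0.11 without CT 4, whose level was low. The median of the list was -0.28 without CT 4, and monocyte genes were also lower with the supplement on the atherogenic diet (median -0.27, 17 of 18 lower). Of 4 dendritic cell genes 3 were lower.

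With all 8 animals, genes of neutrophils and red cells were lower in CT-GE-RES, and this rested largely on CT 4, a male. In females red cell genes leaned higher. Of 11 neutrophil genes 10 were lower (median -0.71), but the median was -0.20 without CT 4. By sex, 4 were higher in females (median -0.088) and 0 in males (median -0.92). NPG4, a protegrin antimicrobial peptide, was 6.31, 6.44, 7.58 and 10.96 in CT and 5.49, 5.64, 7.66 and 5.80 in CT-GE-RES (difference -1.67, SE 0.82, -0.65 without CT 4). CHI3L1, a chitinase-like protein of neutrophils and macrophages, did not depend on it: 8.46, 7.98, 7.76 and 7.74 in CT and 6.73, 6.83, 6.08 and 8.49 in CT-GE-RES, where CT-GE-RES 4 alone was as high as the controls (-0.95, SE 0.48, -1.03 without CT 4). Of 10 erythroid genes 9 were lower (median -0.56, and -0.12 without CT 4, with 3 higher). By sex, 8 were higher in females (median 0.32) and 1 in males (median -1.09), without a test of that contrast. The embryonic globin HBE1 was 7.27, 6.19, 8.60 and 9.68 in CT and 7.23, 6.99, 5.86 and 5.46 in CT-GE-RES, high in both CT males. KLF1, the erythroid transcription factor, differed by -0.52 (SE 0.24) and by -0.13 without CT 4. Platelet genes split evenly, 7 of 13 being higher with a median of 0.09. THBS1 (thrombospondin) differed by -0.72 (SE 0.36, with -0.29 and 0.038 by dimmer probe sets) and the matrix protein SPARC by -0.29 (SE 0.13, -0.17 without CT 4). The groups overlapped in both. With the means of the neutrophil, red cell and platelet lists as covariates, 357 probe sets had an unadjusted p under 0.05.

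The most uniform shift outside the cell type lists was in the proteasome, the complex that degrades ubiquitin-tagged proteins. Of 37 proteasome genes 36 were higher in CT-GE-RES, 13 at an unadjusted p under 0.05 (5.95% of all genes on this side), and 6 had groups that did not overlap. The shifts were small, with a median of 0.23. PSMA5, an alpha subunit of the core, was 9.20, 9.17, 9.30 and 8.71 in CT and 9.48, 9.38, 9.56 and 9.33 in CT-GE-RES, without overlap (difference 0.34, SE 0.11). The catalytic subunit PSMB5 was 9.10, 9.17, 9.15 and 8.67 in CT and 9.45, 9.31, 9.34 and 9.28 in CT-GE-RES, without overlap (difference 0.33, SE 0.11, 0.21 without CT 4). PSMC2, an ATPase of the cap, differed by 0.29 (SE 0.098) and PSMB4 by 0.35 (SE 0.13, 0.21 without CT 4). The list mean was 0.057, 0.0020, -0.079 and -0.24 in CT and 0.28, 0.12, 0.21 and 0.091 in CT-GE-RES. All 4 supplemented pigs lay above all 4 controls, and CT 4 was the lowest. Without CT 4 the median was 0.16, with 36 of 37 higher and 4 at an unadjusted p under 0.05. With the ratio as covariate it was 0.18, with 34 higher and 5 at that p. On the atherogenic diet the same supplement gave a median of -0.02, with 15 of 37 higher.

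Protein folding genes leaned the same way. Of 34 heat shock proteins and chaperones 27 were higher (median 0.12), 8 at an unadjusted p under 0.05. Without CT 4 the median was 0.12 too, but 4 were at that p, and with the ratio as covariate 4. HSPH1, a large heat shock protein, was 8.75, 8.54, 8.40 and 8.26 in CT and 8.90, 8.997, 9.19 and 8.67 in CT-GE-RES, overlapping between CT 1 and CT-GE-RES 4 (difference 0.45, SE 0.17). Subunits of the ring chaperone that folds actin and tubulin stood higher too: CCT4 was 10.89, 10.96, 10.56 and 10.67 in CT and 11.23, 11.06, 11.27 and 11.09 in CT-GE-RES (difference 0.39, SE 0.15), and TCP1 differed by 0.26 (SE 0.094). Neither overlapped between the groups. The cochaperone STIP1 differed by 0.38 (SE 0.14), and by 0.20 without CT 4. Genes of the unfolded protein response were near the background with all 8 animals. Of 18 genes 12 were higher (66.7%, against 59.3% of all genes), with a median of 0.08. Only 1 (5.56%) had an unadjusted p under 0.05, on the higher side, against 5.95% of all genes on that side. Without CT 4 the median was 0.18, with 16 higher. MANF, a secreted protein of the endoplasmic reticulum, stood higher by 0.37 (SE 0.18).

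With all 8 animals, antigen presentation genes of both classes leaned higher, but without CT 4 only class I did. In females class II genes leaned lower. Of 13 class I genes 11 were higher (median 0.21, and 0.19 without CT 4), 3 at an unadjusted p under 0.05. With the ratio as covariate the median was 0.087 and 1 gene had such a p, as without CT 4. The median was 0.048 in females and 0.30 in males. SLA-6, a pig class I molecule, was 11.52, 11.56, 11.16 and 11.14 in CT and 11.68, 11.70, 11.98 and 11.62 in CT-GE-RES, without overlap (difference 0.40, SE 0.14, 0.34 without CT 4). The disulfide isomerase PDIA3 of the loading complex differed by 0.34 (SE 0.14, 0.19 without CT 4) and the immunoproteasome subunit PSMB10 by 0.24 (SE 0.11). Near-identical class I genes share sequence, so a probe set of one can also bind another. Of 14 class II genes 11 were higher (median 0.25), but only 6 without CT 4 (median -0.04), and with the ratio the median was -0.080. By sex, 3 of the 14 were higher in females (median -0.098) and 12 in males (median 0.63), without a test of that contrast. SLA-DRA was 12.43, 10.84, 10.26 and 8.43 in CT and 12.18, 11.06, 11.06 and 12.32 in CT-GE-RES, with a wide spread within CT and CT 4 the lowest. Its difference was 1.17 (SE 0.64), and 0.41 without CT 4. SLA-DRB1 differed by 0.69 (SE 0.36), and by 0.24 without CT 4.

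Cell cycle genes were higher in 25 of 27 cases, with a median of 0.30 (0.43 without CT 4), but only 2 had an unadjusted p under 0.05. The list mean was -0.38, 0.053, 0.25 and 0.51 in CT and 0.54, 0.49, 0.74 and -0.015 in CT-GE-RES, where CT-GE-RES 4 lay among the controls. The spindle checkpoint gene MAD2L1 was 8.83, 8.98, 8.92 and 9.17 in CT and 9.62, 9.30, 9.70 and 9.04 in CT-GE-RES (difference 0.44, SE 0.18), and the chromatin protein HMGB2 differed by 0.30 (SE 0.12). With the ratio as covariate 10 of the 27 genes had an unadjusted p under 0.05, and without CT 4 8, all higher. Among 20 genes of apoptosis 11 were higher (median 0.02), and 4 had an unadjusted p under 0.05, all on the higher side. Without CT 4 there were 2, both higher, and with the ratio as covariate 2 higher and 2 lower. The pore former BAX was 7.60, 7.68, 7.69 and 6.73 in CT and 8.08, 7.91, 7.92 and 7.89 in CT-GE-RES (difference 0.53, SE 0.17, 0.26 without CT 4). The death receptor FAS differed by 0.42 (SE 0.14), the executioner protease CASP6 by 0.69 (SE 0.27, 0.44 without CT 4) and CFLAR, an inhibitor of death receptor signals, by 0.35 (SE 0.16, 0.14 without CT 4).

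Genes of energy use differed little. Of 58 genes of oxidative phosphorylation 41 were higher (median 0.07) and 6 had an unadjusted p under 0.05. Without CT 4, as with the ratio as covariate, 0 of the 58 had a limma p under 0.05 before adjustment, though 51 were higher without CT 4 (median 0.091). The 6 with all 8 animals were higher, among them the complex I subunits NDUFA10 by 0.60 (SE 0.25, 0.37 without CT 4), NDUFS3 by 0.32 (SE 0.14, 0.17 without CT 4) and NDUFS1 by 0.28 (SE 0.13), beside the ATP synthase subunit ATP5A1 at 0.25 (SE 0.11). Of 59 ribosomal protein genes 46 were higher, with a median of 0.04 equal to that of all genes, among them RPL6 (0.19) and RPSA (0.26), both 0.11 without CT 4. A dimmer probe set of RPL6 differed by -0.16. Of 21 genes of glycolysis and hypoxia 12 were higher (median 0.03), and only carbonic anhydrase CA9 (0.42, SE 0.19, 0.24 without CT 4) had an unadjusted p under 0.05. Fatty acid oxidation genes were higher in 22 of 32 cases (median 0.13). ETFA, which passes electrons from acyl-CoA dehydrogenases, was 9.25, 9.25, 8.86 and 8.66 in CT and 9.66, 9.30, 9.33 and 9.41 in CT-GE-RES (difference 0.42, SE 0.17, 0.31 without CT 4). ECI2, an isomerase for unsaturated fatty acids, was 5.39, 5.67, 5.66 and 5.42 in CT and 5.91, 6.24, 5.98 and 6.08 in CT-GE-RES (difference 0.52, SE 0.22). Neither overlapped between the groups. ECHS1 differed by 0.44, but by 0.17 without CT 4, and the uncoupling protein UCP3 by -0.32 (-0.14 without CT 4, 0.12 by a dimmer probe set).

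Genes of lipid storage and sterols showed no common direction. Of 15 genes of fatty acid and glyceride synthesis 9 were higher (median 0.0089), while the 3 with an unadjusted p under 0.05 were lower: AGPAT2, an enzyme of phosphatidic acid synthesis (-0.44, SE 0.18), the triglyceride lipase PNPLA2 (-0.51, SE 0.22, -0.29 without CT 4) and the phosphatidate phosphatase LPIN2 (-0.31, SE 0.15). Without CT 4, 0 of the 15 had a limma p under 0.05 before adjustment, and with the ratio 2 were lower and 1 higher at that p. A dimmer probe set of PNPLA2 differed by -0.066. Of 16 genes of sterol synthesis and uptake 9 were higher (median 0.08). INSIG1, the brake on sterol synthesis, was 9.67, 9.47, 9.75 and 9.67 in CT and 8.81, 8.73, 9.10 and 9.70 in CT-GE-RES, so that 3 supplemented pigs lay below all controls (difference -0.56, SE 0.29). Its relative INSIG2 differed by 0.53 (SE 0.29), and by 0.11 without CT 4. Of 16 genes of cholesterol efflux and lipoprotein handling 9 were lower (median -0.04), among them the sterol hydroxylase CYP27A1 (-0.32, -0.13 without CT 4). Dimmer probe sets of CYP27A1 differed by 0.0071 and -0.21.

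Immediate early and glucocorticoid response genes leaned lower. Of 24 immediate early genes 19 were lower (median -0.20), 0 at an unadjusted limma p under 0.05 with all 8 animals, and 2 without CT 4 or 5 with the ratio, all lower. EGR1, a transcription factor induced within minutes of a stimulus, was 10.92, 10.54, 10.09 and 9.60 in CT and 10.35, 10.06, 6.46 and 9.72 in CT-GE-RES, and its difference of -1.14 (SE 0.62) included a single far lower value in CT-GE-RES 3, without which it was -0.30. Its dimmer probe sets differed by -0.051 and -1.02. ZFP36, which destabilises cytokine transcripts, differed by -0.34 (SE 0.21), and by -0.52 without CT 4. Of 17 glucocorticoid response genes 14 were lower (median -0.18). In females 16 of 17 were lower (median -0.32), but in males 9 of 17 were higher (median 0.031), again without a test of that contrast. KLF9 was 7.87, 8.87, 8.33 and 8.21 in CT and 7.21, 7.12, 7.89 and 8.20 in CT-GE-RES (difference -0.71, SE 0.31). Thrombomodulin (THBD) was 7.13, 6.93, 6.74 and 5.80 in CT and 5.63, 5.77, 5.63 and 6.60 in CT-GE-RES (-0.74, SE 0.36), and the kinase SGK1 differed by -0.36 (SE 0.20, -0.54 without CT 4). In both, CT-GE-RES 1, 2 and 3 lay below every control and CT-GE-RES 4 did not. Without CT 4, 5 of the 17 genes were lower at an unadjusted p under 0.05.

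Interferon response genes were lower in 16 of 24 cases, with a median of -0.31, and 2 controls stood high. Without CT 1 the median was 0.032, so the shift was not seen without that animal, and without CT 4 it was -0.18. The list mean was 0.92, -0.23, -0.28 and 0.81 in CT and -0.020, -0.060, 0.055 and 0.44 in CT-GE-RES, with CT 1 and CT 4 high. The antiviral gene RSAD2 was 9.78, 8.56, 8.35 and 10.32 in CT and 8.05, 8.40, 8.76 and 8.87 in CT-GE-RES (difference -0.73, SE 0.36, -0.46 without CT 4), and the kinase EIF2AK2 differed by -0.32 (SE 0.16, -0.19 without CT 4). The guanylate binding protein GBP1 went the other way, 10.997, 10.48, 10.55 and 10.71 in CT and 11.02, 11.07, 11.39 and 11.15 in CT-GE-RES, without overlap (difference 0.47, SE 0.21), and GBP2 differed by 0.35 (SE 0.17). Of 25 genes of inflammatory cytokines and NF-kB targets 13 were lower and 12 higher (median -0.02), and 0 had an unadjusted limma p under 0.05. The monocyte attractant CCL8 was 8.06, 5.62, 7.01 and 8.13 in CT and 8.61, 8.78, 6.86 and 9.22 in CT-GE-RES (difference 1.16, SE 0.56), where CT-GE-RES 3 lay below 3 of the controls. Of 21 genes of adhesion and migration 11 were higher (median 0.02), among them the egress receptor S1PR1 (0.29, SE 0.15, 0.16 without CT 4) and the gut-homing receptor CCR9 (0.60, SE 0.31).

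**Figure D4:**
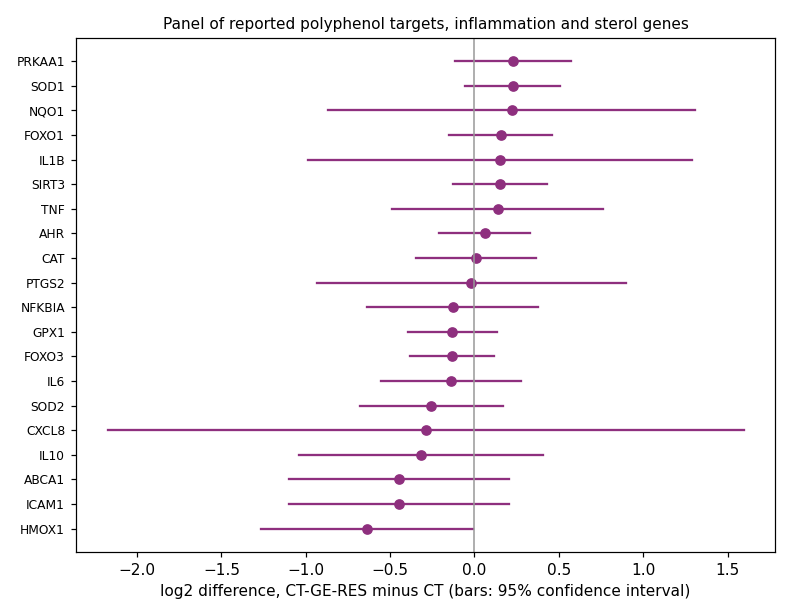
Log2 difference, CT-GE-RES minus CT (x axis, bars for the 95% confidence interval), of 20 genes (y axis) from a panel of reported polyphenol targets, inflammation and sterol genes. Each interval except that of HMOX1 (-0.64) includes 0, and that of CXCL8 is the widest.

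A panel of 31 genes reported as polyphenol targets or as inflammation and sterol genes showed no common direction. Of these, 20 were tested, 9 higher and 11 lower, with a median of -0.07. PPARGC1A, CYP1A1, PPARA and PPARG lay under the intensity filter, and the others were not analysed here. HMOX1, heme oxygenase and a target of NRF2, was the panel gene with an unadjusted p under 0.05. It was 8.95, 9.23, 8.83 and 9.004 in CT and 8.10, 8.25, 8.24 and 8.88 in CT-GE-RES, so that 3 supplemented pigs lay below all controls (difference -0.64, SE 0.30). Without CT 4 its difference was -0.65 and with the ratio -0.57, and under either setting 0 panel genes had an unadjusted limma p under 0.05. NQO1, another NRF2 target, differed by 0.22 (95% confidence interval -0.87 to 1.31). Of 33 NRF2 and antioxidant genes 14 were higher and 19 lower (median -0.03). GPX4, which removes lipid peroxides, differed by 0.42 (SE 0.16), 0.20 without CT 4 and -0.06 by its second probe set. The peroxiredoxin PRDX4 differed by 0.28 (SE 0.14) and PRDX2, abundant in red cells, by -0.48 (SE 0.24, -0.20 without CT 4).

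The superoxide dismutases differed by 0.23 (SOD1, 95% confidence interval -0.053 to 0.50) and -0.26 (SOD2, -0.68 to 0.17). Catalase (CAT) differed by 0.0088 (-0.35 to 0.36) and the peroxidase GPX1 by -0.13 (-0.39 to 0.13). Of 17 genes of sirtuins, AMPK and FOXO factors 10 were higher (median 0.06). The mitochondrial deacetylase SIRT3 was 7.83, 8.20, 7.94 and 7.78 in CT and 7.97, 7.96, 8.24 and 8.18 in CT-GE-RES, an overlapping difference of 0.15 (-0.12 to 0.43), and SIRT5 differed by 0.16 (SE 0.11, 0.047 without CT 4). PRKAA1, a catalytic subunit of AMPK, differed by 0.23 (-0.12 to 0.57, and 0.026 without CT 4), FOXO1 by 0.15 (-0.060 by a dimmer probe set) and FOXO3 by -0.13. The growth brake TSC1 differed by -0.26 (SE 0.11). AHR, the aryl hydrocarbon receptor, differed by 0.060 (-0.21 to 0.33), and of 10 genes of its response and of xenobiotic handling 8 were lower (median -0.09). ALDH1A1, which makes retinoic acid, was 4.17, 4.35, 4.27 and 4.17 in CT and 3.93, 4.12, 4.01 and 3.99 in CT-GE-RES, without overlap (-0.23, SE 0.10). Its dimmer probe set differed by 0.065.

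Inflammatory genes of the panel had wide intervals. TNF was 6.33, 5.90, 5.53 and 6.47 in CT and 6.24, 6.35, 5.64 and 6.56 in CT-GE-RES (difference 0.14, -0.49 to 0.76). IL1B differed by 0.15 (-0.98 to 1.29, and -0.074 by a dimmer probe set), CXCL8 by -0.29 (-2.18 to 1.60), IL6 by -0.14 (-0.55 to 0.28) and IL10 by -0.32 (-1.04 to 0.41). Differences of these sizes or none were not distinguishable with 4 animals per group. Without CT 4 the differences were 0.29 for TNF, -0.11 for IL1B, -1.01 for CXCL8 and -0.0040 for IL6. PTGS2 (cyclooxygenase 2) differed by -0.018, the NF-kB inhibitor NFKBIA by -0.13 and the cholesterol exporter ABCA1 by -0.45 (-1.10 to 0.20). The adhesion molecule ICAM1 was 8.36, 8.49, 8.13 and 8.09 in CT and 7.76, 7.94, 7.51 and 8.07 in CT-GE-RES, without overlap, and differed by -0.45 (-1.10 to 0.21). Of 27 genes of autophagy and lysosomes 14 were lower (median -0.03), and LAMP2 differed by -0.20 without overlap. Of 8 clock genes 6 were lower (median -0.04), while RORA (0.31) and ARNTL (0.31) were higher without overlap.

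Taken by sex, 54.8% of the 17999 probe sets differed in opposite directions in females and males, and the number of calls changed with single animals. In females, 2 supplemented against 2 control animals, 0% of probe sets had an adjusted p under 0.05 with limma and 867 (4.82%) an unadjusted p under 0.05. In males 122 probe sets (0.678%) had an adjusted p under 0.05, 74 higher (0.411%) and 48 lower (0.267%), and 22.1% an unadjusted p under 0.05. The test of the difference between the sexes called 52 probe sets (0.289%), and 15% had an unadjusted p under 0.05. The sign was opposite in females and males in all 52, which the way they were chosen favours. The labels do not say whether the 2 pigs of one diet and sex shared a litter, a pen or a day of processing, so such sharing and a sex difference cannot be told apart. Leaving out 1 animal leaves 1 animal for that diet and sex, which is then assumed to vary like the other groups of the fit. Without CT 4, 6 probe sets were called in males, 4 of them among the 122, and 8.32% had an unadjusted p under 0.05. There were 2530 without CT 3, 12 without CT-GE-RES 3, 0 without CT-GE-RES 4 and 41 without either supplemented female. The sex difference without CT 4 called 35 probe sets, 17 of them among the 52, and without CT 3 it called 1047. It called 11 without CT 1, 20 without CT 2, and 5, 17, 20 and 15 without CT-GE-RES 1, 2, 3 and 4. With the ratio as covariate 85 were called for the sex difference, 48 of them shared, and 6 in males. With the neutrophil, platelet and erythroid means as covariates 0 were called in either test.

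**Figure D5:**
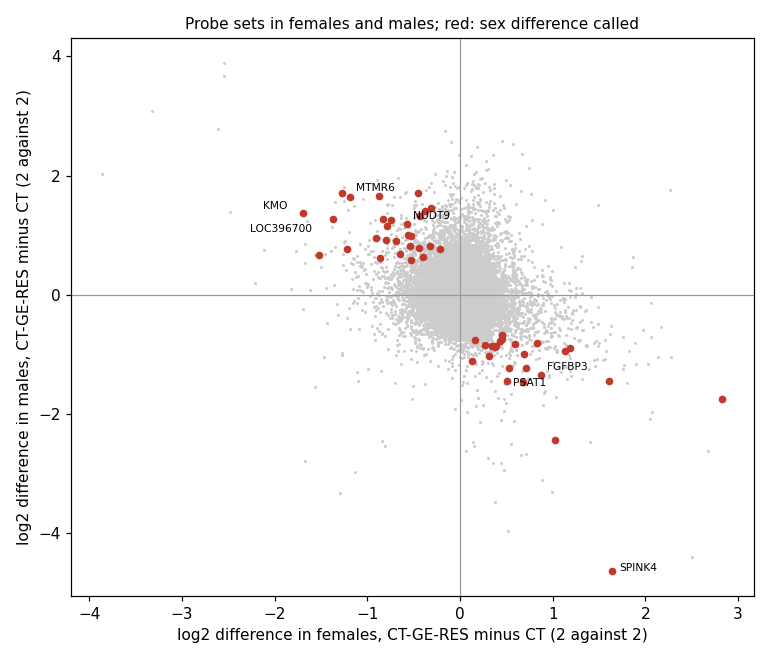
Log2 difference, CT-GE-RES minus CT, of each of 17999 probe sets in females (x axis) and in males (y axis), 2 animals against 2 in each; red points are the 52 probe sets called for a difference between the sexes. All red points, chosen by that test, lie where the signs of the 2 sexes differ, with KMO at -1.70 in females and 1.37 in males.

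KMO, the enzyme that turns kynurenine toward the synthesis of nicotinamide nucleotides, showed the second smallest p of the sex test. It was 8.45, 8.87, 6.73 and 6.66 in CT and 7.07, 6.84, 7.81 and 8.31 in CT-GE-RES. CT females and supplemented males were high and the others low, with -1.70 in females, 1.37 in males and a difference between the sexes of 3.07 (SE 0.34, limma, adjusted p = 0.00111). The 2 AD-RES males, at 8.50 and 8.47, were as high, and the other atherogenic-diet pigs reached at most 7.19. MTMR6, a phosphatase of membrane inositol lipids, had the smallest p: 8.997, 9.27, 7.70 and 7.66 in CT and 7.79, 8.10, 9.32 and 9.33 in CT-GE-RES (difference between the sexes 2.83, SE 0.29, limma, adjusted p = 0.000755). CT males stood low and supplemented males high. Its second probe set went the same way (1.51), but the brightest of its probe sets showed -0.29.

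PSAT1, an enzyme of serine synthesis, was 4.88, 4.94, 7.04 and 7.03 in CT and 5.45, 5.38, 6.04 and 5.13 in CT-GE-RES, so that the 2 CT males stood above all 22 other arrays. It was called lower in males (-1.45, limma, adjusted p = 0.0186), but without CT 4 this call was lost at a difference of -1.46. NUDT9, which splits ADP-ribose, was 9.32, 9.32, 8.15 and 8.10 in CT and 8.94, 8.56, 9.31 and 9.31 in CT-GE-RES, low in the CT males only (difference between the sexes 1.76, limma, adjusted p = 0.00361). ABHD13 was 5.22, 4.96, 4.16 and 3.75 in CT and 4.67, 4.89, 5.44 and 5.39 in CT-GE-RES, and rose in males by 1.45 (limma, adjusted p = 0.00533, 1.25 without CT 4). Second probe sets of NUDT9 and ABHD13 had the same sign of the sex difference (2.15 and 1.02).

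Other genes called for the sex difference were ARHGAP5 (2.10, SE 0.31), the nuclear import receptor IPO11 (1.59, SE 0.25) and the transcription coactivator subunit SUPT3H (1.23, SE 0.18), each with another probe set of the same sign (1.86, 1.94 and 1.01). FGFBP3, a binding protein of fibroblast growth factors, was 3.55, 3.66, 5.33 and 4.68 in CT and 4.18, 4.78, 3.65 and 3.68 in CT-GE-RES, with the CT males high (-2.22, SE 0.32). LOC396700, a locus without a symbol, differed between the sexes by 2.64 (SE 0.43). In males SPINK4 was 6.09, 5.70, 8.39 and 11.23 in CT and 7.37, 7.68, 5.26 and 5.10 in CT-GE-RES, a difference of -4.63 that was -3.21 and no longer called without CT 4, while its second probe set differed by -0.14. CD300C, a myeloid receptor, was called lower in males (-1.74, limma, adjusted p = 0.0249), which was -1.52 and not called without CT 4, and its second probe set showed -0.12. In both, CT 4, the array with the high neutrophil genes, was the highest.

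In females the smallest adjusted limma p was 0.0512, for KMO. CTLA4 stood higher by 1.18 in females and 0.19 in males. NOSTRIN, an adaptor of nitric oxide synthase, was 3.75, 3.48, 5.86 and 5.25 in CT and 5.88, 5.91, 5.36 and 3.67 in CT-GE-RES, which is 2.28 in females and -1.04 in males. The chemokine CCL14 was high in the 2 CT females only, 8.28, 8.78, 6.87 and 7.05 in CT and 6.66, 6.75, 6.87 and 7.25 in CT-GE-RES (-1.83 in females). For gene groups the sexes are given side by side, without a test. Platelet genes were higher in 11 of 13 cases in females (median 1.03) and in 1 in males (-0.85), where CT 3 had the highest mean. Cell cycle genes were higher in 26 of 27 cases in females (median 0.69) and in 13 in males (-0.05). T cell genes had medians of 0.26 in females and 0.91 in males, cytotoxic genes -0.0043 and 0.76, and proteasome genes 0.12 and 0.32.

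The same supplement was also given on the atherogenic diet, and the comparison of AD-GE-RES with AD shares no array with the one on chow. The test of the difference between the diets called 0% of probe sets (limma, no adjusted p below 1.00 after rounding). Before adjustment 561 (3.12%) had a p under 0.05. So no gene is called particular to chow. FKBP5, a glucocorticoid-induced chaperone, had the smallest p of the named genes in this test: it differed by 0.22 on chow and -0.72 on the atherogenic diet (difference between the diets 0.94, SE 0.26), and its brighter probe set by -0.12 on chow. CTLA4 differed by 0.68 on chow and -0.28 on the atherogenic diet (difference 0.96, SE 0.26). CXCR6 gave 0.54 and -0.23 (difference 0.77, SE 0.23). PNO1, an assembly factor of the small ribosomal subunit, gave 0.35 and -0.22. OCRL gave -0.38 and 0.079, and the lysosomal galactosidase GLB1 -0.43 and 0.38. Medians of gene groups on chow and on the atherogenic diet were 0.55 and 0.0027 for T cells, 0.23 and -0.02 for the proteasome, 0.30 and 0.08 for the cell cycle, -0.31 and -0.43 for interferon response, and -0.18 and -0.22 for glucocorticoid response.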

How the data were processed

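RNA of blood mononuclear cells of 24 pigs, 1 array each, was measured on an Affymetrix pig array. The deposited values are probe set intensities on a linear scale, made by the authors with RMA and GCOS per the submitters' processing notes; the versions, and which tool did which step, are not given in the sources used here. From these, log2 values were taken. Of 24123 probe sets, 124 controls and the 25% of the others with the lowest mean (under 3.57) were left out, and 17999 were tested, of which 8540 had 1 gene symbol, 168 several and 9291 none in the platform annotation. The 8540 stand for 6033 genes.

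Differences were fitted with limma 3.58.1 in R 4.3.3 (lmFit and eBayes, two-sided, Benjamini-Hochberg, threshold 0.05) over all 24 arrays, with diet and sex as terms. Within-sex tests and the sex difference used 12 means of diet and sex. Unadjusted counts use a p under 0.05. The fit was tested on simulated data with independent noise of the same spread in every group. That setting holds no array like CT 4 and no likeness between animals of one diet and sex, so it does not test the fit under those conditions. P-values measure the spread between these animals, whose litter, pen and processing day the labels do not give, and the number of arrays limits precision. The values of all 4 animals of each group enter every comparison unless an animal is named as left out.

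Genes were named by rule: 15 in each direction by smallest p, up to 4 from each list with at least 5 measured genes, a panel, and up to 10 for females, males, the sex difference and the diet difference, of which a selection is described. The comparison, the lists and the panel were chosen with earlier results of these data known. Each gene of a list is taken by its brightest probe set. Alternatives changed the filter (none, or the lower 50% left out), scaling (quantile, array medians), the sex term, the arrays fitted, array weights, the prior, covariates (3'/5' ratio, list means of other blood cells), averaged probe sets, log2(value + 16), each array left out, and a random block of diet and sex.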

Additional observations from a re-analysis of the deposited data

Results flagged for a closer look

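Single animals stood apart within a group of 4 in 24 cases, by a gap to the nearest animal that was large for the range of the group. The rule was applied to 450 groups over 193 named probe sets and to the lists, and chance alone gives about 1 in 20 groups. CT 4 accounted for 9 of the 24. It was high for the neutrophil list (mean of 1.66 relative to all arrays) and for SYT5 (4.87). It was low for APOO (6.37), CD3G (9.62), CD8A (10.998), FCGR3A (11.18), CA9 (5.47), PSMB5 (8.67) and BAX (6.73). CT-GE-RES 4 was high for the glucocorticoid list (0.23), THBD (6.600), SGK1 (11.66), AGPAT2 (5.53) and LAT (9.36). CT-GE-RES 3 was low for the aryl hydrocarbon list (-0.18), BMX (5.002), EGR1 (6.46) and LPIN2 (6.33) and high for the protegrin NPG4 (7.66). CT-GE-RES 1 was high for MC2R (4.92), NDUFS3 (9.96) and BAX (8.08) and low for ARG2 (3.41), and CT 1 was low for RORA (6.84).

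The difference between supplemented and control pigs was also compared between males and females by limma's test. The 10 called genes below had the smallest p of the genes with a symbol in that test, so the test itself chose them. SPINK4 and SLA-DQB1, named by other rules, were called too, with male minus female differences of -6.26 and 1.74. The male minus the female difference was 2.83 for MTMR6, 3.07 for KMO, 1.76 for NUDT9, 1.76 for ABHD13, 2.10 for ARHGAP5, 1.23 for SUPT3H, 1.59 for IPO11 and 2.64 for LOC396700. It was -2.22 for FGFBP3 and -1.96 for PSAT1. Each rests on 2 animals per diet and sex, and shared litter, pen or day within such a pair cannot be told apart from sex.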

How the results depend on the processing

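No probe set was called in the comparison of all 8 animals under any alternative that kept both sexes, whether it changed the filter, the scaling, the covariates or the arrays; males alone gave the 122 of the main text and 3973 at an unadjusted limma p under 0.05. The 1224 probe sets at that p became 752 with array weights, 766 with the 3'/5' ratio, 357 with the neutrophil, platelet and erythroid means and 643 with the 2 animals of one diet and sex as a random block, an alternative chosen after seeing the data (correlation 0.20), in which contrasts within a sex could not be fitted. With probe sets averaged, 499 of 6033 genes (8.27%) had such a p, which is a share like that by brightest probe set. Leaving out 1 array gave 495 to 2229, with 495 without CT 4, 2229 without CT 1 and 1850 without CT 2. In females 1 probe set was called with the lower 50% left out, array-median centring, array weights, a trend and robust prior, the ratio, averaged probe sets or log2(value + 16), 3 with only the 8 arrays, and 0 to 1 with 1 array left out. In males the 122 became 65 after another quantile normalization, 3 with only the 8 arrays, 2 with weights, 6 with the ratio, 0 with the cell covariates, 213 of 6033 genes with averaged probe sets and 0 to 2530 with 1 array left out. The 52 for the sex difference became 6, 16, 85 and 0 under the 8 arrays, weights, ratio and cell covariates, and 5 to 1047 with 1 array left out. The main text gives these counts by animal. The cause of these shifts was not tested.

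Of the list medians, those in females alone that moved beyond the spread between animals were cytotoxic and NK cells -0.0043, neutrophils -0.088, platelets 1.03, erythroid cells 0.32, NRF2 and antioxidant enzymes 0.067, sirtuins, AMPK and FOXO -0.067, aryl hydrocarbon and xenobiotic response 0.036, sterol synthesis and uptake -0.14, cholesterol efflux and lipoprotein handling 0.037, fatty acid oxidation and PPAR targets 0.056, proteasome 0.12, cell cycle and replication 0.69 and MHC class I presentation 0.048. In males alone these were cytotoxic and NK cells 0.76, platelets -0.85, NRF2 and antioxidant enzymes -0.099, sirtuins, AMPK and FOXO 0.19, aryl hydrocarbon and xenobiotic response -0.23, sterol synthesis and uptake 0.33, cell cycle and replication -0.046, apoptosis 0.16 and circadian clock 0.093. With the cell covariates the medians were neutrophils -0.022, fatty acid oxidation and PPAR targets 0.054 and MHC class I presentation 0.079, without the intensity filter fatty acid oxidation and PPAR targets 0.045, with the lower 50% left out cholesterol efflux and lipoprotein handling 0.041 and with probe sets averaged fatty acid and glyceride synthesis -0.082. With 1 array left out the medians ranged over -0.035 to 0.085 (sirtuins), -0.11 to -0.011 (efflux), 0.080 to 0.14 (fatty acid oxidation) and 0.10 to 0.20 (chaperones). Genes whose difference changed sign in females alone were GZMH -0.024, SPARC 0.11, HBE1 0.37, PRDX2 0.038, SIRT5 -0.060, PRKAA1 -0.12, SIRT3 -0.050, INSIG2 -0.16, CYP27A1 0.0086, UCP3 0.033, SLA-DRA -0.016, SLA-DQB1 -0.43, FOXO1 -0.018 and IL1B -0.082, and in males alone CEBPD 0.031, CAT -0.063, AHR -0.062, NQO1 -0.20, CXCL8 0.68 and PTGS2 0.44. Signs also changed with the ratio (CAT -0.13, IL1B -0.36 and AHR -0.016), weights (PTGS2 0.031), centring (CAT -0.00064), quantile normalization (CAT -0.047, AHR -0.00058 and PTGS2 0.025), averaged probe sets (CEBPD 0.017) and the cell covariates (FOXO1 -0.012, CAT -0.12, IL1B -0.027, IL10 0.015, PTGS2 0.0043 and IL6 0.0020). With 1 array left out sign changes occurred over ranges of -0.25 to 0.11 (NFKBIA), -0.084 to 0.11 (CAT), -0.29 to 0.75 (IL1B), -0.037 to 0.13 (AHR), -1.01 to 0.26 (CXCL8), -0.045 to 0.33 (TNF), -0.28 to 0.31 (PTGS2). No paired analysis was possible because the labels give each pig its own identifier and no replicate number shared between the diets. Precision is limited by 4 arrays per diet and 2 per diet and sex, and for dim probe sets by their low intensity.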
